A study of Mus musculus with 71 samples.

Results

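The 9 genes described here encode the Myc, Max and Mxd network of transcription factors, namely Myc, Mycn and Mycl, their shared partner Max, and the antagonists Mxd1, Mxd3, Mxd4, Mxi1 and Mnt. They were chosen by name as a network, with no threshold on a measured value, and all 9 were found by gene symbol among the 25579 genes of the Pax5 mutant RNA-seq samples and among the 24420 genes of the lymphoid RNA-seq samples. The study asked how separate domains of Pax5, the factor that commits lymphoid progenitors to the B cell pathway, act in early B cell development of C57BL/6 mice. Poly(A) RNA was sequenced from 31 pro-B cell or progenitor samples of bone marrow and from 17 samples of lymphoid progenitors and thymocytes, all sorted by flow cytometry.

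In the names of the mutants, D stands for a deletion. Pax5(+/+) pro-B cells carried both intact alleles and had 5 samples. The central domains were removed in Pax5(DOP/DOP), which lacks the octapeptide, in Pax5(DHD/DHD), which lacks the partial homeodomain, and in Pax5(DOP,HD/DOP,HD), which lacks both. The 2 C-terminal regulatory domains were removed singly or jointly, either on both alleles, in Pax5(DCRD1/DCRD1), Pax5(DCRD2/DCRD2) and Pax5(DCRD1,2/DCRD1,2), or on 1 allele opposite a null allele, in Pax5(DCRD1/-), Pax5(DCRD2/-) and Pax5(DCRD1,2/-). Pax5-deficient progenitors came from Vav-Cre Pax5(fl/fl) mice, in which Vav-Cre deletes the floxed gene from haematopoietic stem cells onwards and therefore in every blood lineage. A separate experiment compared Vav-Cre Pax5(fl/+) pro-B cells with Vav-Cre Pax5(fl/fl) and Vav-Cre Pax5(Prd/fl) progenitors sorted with an alternative gate, where the Prd allele encodes the DNA-binding paired domain without the rest of the protein. These 3 groups shared the Vav-Cre transgene. Each mutant group had 2 samples. The octapeptide allele was made in embryonic stem cells and the other domain deletions in zygotes. The labels give no age for any sample, and the study worked with young to adult mice. By the study's methods, Pax5(DCRD1,2/-) cells and Pax5-deficient progenitors were gated as Lin-Ly6D+Kit hi B220+, whereas Pax5(+/+), Pax5(DCRD1/-) and Pax5(DCRD2/-) pro-B cells were sorted with another gate, so genotype and gate could not be told apart in the comparisons that use both. The gate of Pax5(DCRD1,2/DCRD1,2) cells was not given for these samples in the sources used here. Wild-type lymphoid samples covered lymphoid-primed multipotent progenitors (LMPP, 2 samples), the thymocyte stages DN1, DN2a and DN2b (3 samples each), and DN3a and DN3b (2 samples each). To these, 2 samples of DN3a thymocytes from Rag2(-/-) mice were added, which cannot rearrange antigen receptor genes and hold few thymocytes past DN3a. Nothing in the labels says how many animals entered a sample, so p-values measure the spread between samples, which may in part be technical. At DN1, DN2a and DN2b, the titles number 2 of the 3 samples alike. Whether such a pair repeats 1 biological replicate is not known, and every sample was fitted as a separate one. These stages may therefore hold fewer than 3 independent replicates, while the p-values of their steps take them as 3.

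Myc, Mycn and Mycl bind DNA as heterodimers with Max at the E-box CACGTG and activate genes for ribosome assembly, nucleotide synthesis and cell growth. The Mxd proteins, Mxi1 and Mnt bind the same E-box with the same partner and recruit the Sin3 corepressor and histone deacetylases, so that members compete for Max and for sites. In lymphocyte development Myc drives the growth of cells that have passed a receptor checkpoint, and Mycn is known from early progenitors, whereas most Mxd genes are known from resting or differentiating cells and Mxd3 is the exception that was found in proliferating cells.

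On mouse assembly GRCm38.p6, RefSeq places Myc at chr15:61985341-61990361 on the plus strand, Mycn at chr12:12936093-12941836 on the minus strand and Mycl at chr4:122995588-123002490 on the plus strand. Max lies at chr12:76937269-76962323 on the minus strand. Of the antagonists, Mxd1 lies at chr6:86647044-86669234, Mxd3 at chr13:55325170-55329900 and Mxd4 at chr5:34176580-34187710, all on the minus strand, while Mxi1 at chr19:53310128-53373293 and Mnt at chr11:74830806-74845725 are on the plus strand. Exonic bases of Mxd3 overlap those of Prelid1 on the other strand over 103 of 1586 bases, and Mxi1 shares 230 of 4678 exonic bases with Gm30541. Whether reads were counted by strand is not given in the sources used here, so reads in these stretches cannot be assigned with certainty. The other 7 members shared no exonic base with another gene.

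RefSeq promoter windows, from 250 bases before to 50 bases after the start of a curated transcript, were found for 8 of the 9 members. The gene spans above also hold predicted transcripts, so that the curated start lay 169 bases inside the span of Mxd3, 75 bases inside that of Max and 0 bases inside those of Mycn and Mxd4. The E-box, spelled CACGTG on either strand, was present in the windows of Max, Mxd4 and Mnt, that is in 3 of 8 members, and in 2349 of 32851 windows of all genes (7.15%). The spelling TTTGGCGC, a binding motif of E2F cell cycle factors, occurred at 2 places in the Mycn window and in 169 of all windows (0.514%), and the spelling TTTCCCGC occurred in no member's window and in 351 of all windows (1.07%). A match of letters describes the window and does not show that a factor binds there. The windows are printed for 4 of these members, in the direction of transcription, with the motif matches in capitals. Mxd3 and Mxd4 moved in opposite directions from DN1 to DN2a, from DN2b to DN3a and from DN3a to DN3b. Along the T lineage Mycn fell at 2 steps and Max was called at 1 step.

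Mxd3, chr13:55329682-55329981, minus strand: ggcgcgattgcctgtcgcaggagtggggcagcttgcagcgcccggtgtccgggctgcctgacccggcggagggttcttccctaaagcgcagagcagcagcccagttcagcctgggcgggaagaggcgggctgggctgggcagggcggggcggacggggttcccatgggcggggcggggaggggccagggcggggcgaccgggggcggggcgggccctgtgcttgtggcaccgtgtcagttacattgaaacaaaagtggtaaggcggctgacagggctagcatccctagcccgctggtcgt
Mxd4, chr5:34187661-34187960, minus strand: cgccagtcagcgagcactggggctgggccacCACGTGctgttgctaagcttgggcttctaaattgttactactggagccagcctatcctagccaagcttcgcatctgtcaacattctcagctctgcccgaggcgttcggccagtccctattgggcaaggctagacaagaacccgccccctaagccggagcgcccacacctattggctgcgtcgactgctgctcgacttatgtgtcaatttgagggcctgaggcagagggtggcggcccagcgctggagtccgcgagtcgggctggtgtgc
Mycn, chr12:12941787-12942086, minus strand: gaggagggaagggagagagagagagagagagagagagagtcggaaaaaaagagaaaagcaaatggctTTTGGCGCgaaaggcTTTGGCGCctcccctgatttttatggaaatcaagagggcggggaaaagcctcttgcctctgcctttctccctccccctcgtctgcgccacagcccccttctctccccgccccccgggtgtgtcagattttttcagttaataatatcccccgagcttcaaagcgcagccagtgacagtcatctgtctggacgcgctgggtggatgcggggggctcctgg
Max, chr12:76962199-76962498, minus strand: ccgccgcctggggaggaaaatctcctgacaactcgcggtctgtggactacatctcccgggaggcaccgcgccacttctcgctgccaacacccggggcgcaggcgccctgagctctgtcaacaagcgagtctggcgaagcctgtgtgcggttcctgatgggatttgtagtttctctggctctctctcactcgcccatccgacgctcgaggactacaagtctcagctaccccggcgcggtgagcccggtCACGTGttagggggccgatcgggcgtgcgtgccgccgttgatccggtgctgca

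The E-box of Max starts 3 bases before the start of its curated transcripts, that of Mxd4 starts 219 bases before it, and the Mycn matches start 183 and 168 bases before it. The Mxd3 window holds none of the 3 spellings.

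The deposited values are TPM, a level per transcript length and per library size that can be compared between genes. Reads recovered from the TPM totalled 10018678 to 43784791 per sample of the Pax5 series, and the depth of the lymphoid samples is unknown. Mycl and Mycn rested on as few as 13 and 16 reads in a sample. Pax5 mRNA was higher in Pax5-deficient progenitors than in Pax5(+/+), with 1609 to 1697 TPM against 341.9 to 523.6 TPM, and since reads from outside the floxed part are counted too, it does not check the deletion. The summed TPM of 10 granulocyte and monocyte markers ranged from 752.5 to 6638 among the Pax5(+/+) samples and reached 15770 in a Pax5(DCRD2/-) sample. T-cell markers summed to 12520 to 13000 TPM in DN3a and to 90.45 to 97.46 TPM in LMPP. In bulk samples, fewer cells of a type and less RNA per cell cannot be told apart.

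In Pax5(+/+) pro-B cells Myc was measured at 136, 216, 166, 188 and 175 TPM in replicates 1 to 5, a mean of 176 ± 29.4 (SD, n = 5). Max lay at 197, 196, 159.7, 162 and 168 TPM and Mxd3 at 168, 160.2, 203, 142 and 211 TPM in the same order. Mxd4 was the most abundant member, with 287, 335, 233, 201 and 224 TPM. The ranges of Myc, Max and Mxd3 overlapped, and their order could not be told from the spread, while the lowest Mxd4 sample lay inside the ranges of Myc and Mxd3. Mnt followed at 33.8 to 71.6 TPM, then Mxi1 at 32.7 to 51.8 TPM and Mxd1 at 11.8 to 22.3 TPM. Mycn at 1.396 to 3.100 TPM and Mycl at 0.287 to 1.15 TPM were nearly silent, and their ranges did not overlap. Myc, Mycn and Mycl together made up 19.4% to 30.5% of the summed TPM of the 8 partners of Max, and Mxd3 18.8% to 29.6%.

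**Figure D1:**
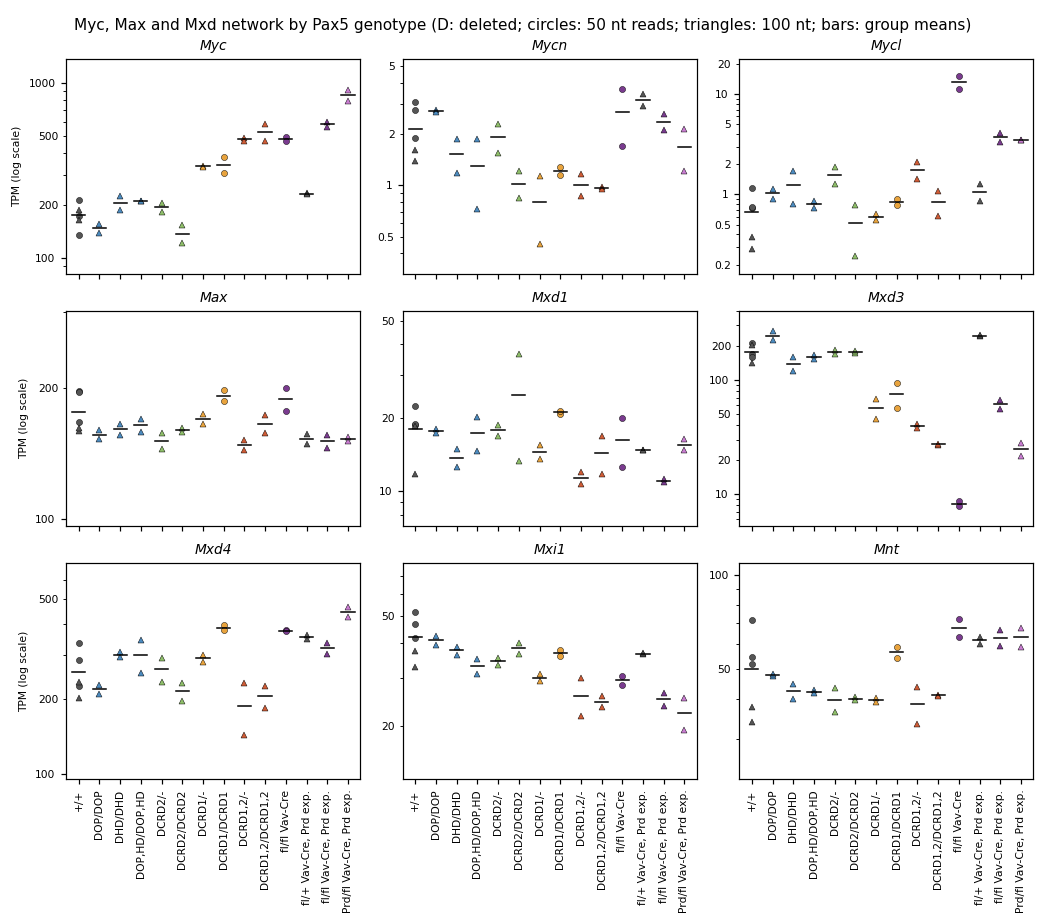
TPM of the 9 members, 1 panel each on a log axis, in every pro-B cell and progenitor sample, with groups along the horizontal axis, a point for each sample and a line for the group mean. Circles are reads of 50 and triangles of 100 nucleotides. Myc lay above and Mxd3 below every Pax5(+/+) sample in the groups that lack CRD1, both C-terminal domains or Pax5, while Max stayed between 144 and 201 TPM in those of the first experiment.

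Comparisons were made with limma on log2(TPM + 0.1), two-sided, over every gene that exceeded 1 TPM somewhere in the model, and a gene was called at a Benjamini-Hochberg adjusted p under 0.05. Changes are given as log2 differences ± SE on that scale, which understates changes of low genes. Libraries were sequenced with reads of 50 or 100 nucleotides, and read length was a term of the model where Pax5(+/+) had both. The authors cut all reads to 50 nucleotides before alignment. This term, called read length throughout, therefore separates 2 types of sequencing run and not lengths of the aligned reads. Each mutant group had 1 read length, so that its difference rested in effect on Pax5(+/+) replicates 3 and 4 for 100 nucleotides and on replicates 1, 2 and 5 for 50 nucleotides. A second, stricter rule followed the study's thresholds, with a mean above 5 TPM in either group and a fold above 3 (2 in the Prd experiment) beside the adjusted p.

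No member of the network was called after deletion of the central domains. Myc stood at 156 and 139.5 TPM in Pax5(DOP/DOP), 188 and 227 TPM in Pax5(DHD/DHD) and 212 and 213 TPM in Pax5(DOP,HD/DOP,HD), against 166 and 188 TPM in the Pax5(+/+) samples of the same run type. Mxd3 gave 222 and 268 TPM, 158 and 119.5 TPM and 154 and 165 TPM in these mutants. Both samples of Pax5(DOP/DOP) were above, and 1 sample of Pax5(DHD/DHD) was below, every Pax5(+/+) sample. The log2 differences of Mxd3 were 0.52 ± 0.20, adjusted p = 0.209 for Pax5(DOP/DOP) and -0.30 ± 0.20, adjusted p = 0.611 for Pax5(DHD/DHD). None of the 9 members was called by limma in the 3 comparisons, in which 0.485%, 0.639% and 1.22% of all genes tested were called. At an unadjusted p under 0.05, 3, 2 and 1 members were found, beside 2531, 1592 and 1815 of all 12996 genes tested. On recovered reads edgeR called 0, and DESeq2 called 1 of the 27, which was Mnt in Pax5(DOP/DOP) at a log2 difference of 0.44 (adjusted p = 0.0354). The shares of all genes called by edgeR and DESeq2 are not given here or below.

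Deletion of CRD2 alone also gave no call. Myc stood at 184 and 206 TPM in Pax5(DCRD2/-) and 122 and 155 TPM in Pax5(DCRD2/DCRD2), and Mxd3 at 167 and 185 TPM and 171 and 179 TPM. These values lay within the Pax5(+/+) range for Mxd3 and, except for 1 Pax5(DCRD2/DCRD2) sample, for Myc. None of the 9 members was called by limma, beside 0.513% of all genes for Pax5(DCRD2/-) and 0.0447% for Pax5(DCRD2/DCRD2). An unadjusted p under 0.05 was found for 1 and 0 members, beside 1071 of 13637 and 864 of 13429 genes. In Pax5(DCRD2/-), edgeR and DESeq2 each called Mycl, at log2 differences of 2.19 and 2.20, where limma gave 1.94 ± 0.39, adjusted p = 0.0674. Neither tool called a member in Pax5(DCRD2/DCRD2). Mxd1 differed between the 2 samples of this group, with 36.6 and 13.2 TPM, and so did the summed granulocyte and monocyte markers, with 8771 and 642.7 TPM in the same order. Their part in the Mxd1 level was not tested.

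Myc was higher in every mutant that lacks CRD1. The 2 samples of Pax5(DCRD1/-) gave 337 and 332 TPM and those of Pax5(DCRD1/DCRD1) gave 305 and 375 TPM. The Pax5(DCRD1,2/-) samples stood at 487 and 465 TPM, the Pax5(DCRD1,2/DCRD1,2) samples at 467 and 585 TPM and the Pax5-deficient progenitors at 493 and 466 TPM. All 10 values exceeded the highest Pax5(+/+) sample of 216 TPM, and the mutants that also lack CRD2 lay above all 4 samples that lack CRD1 alone. These TPM were not adjusted for the type of sequencing run. The rise over Pax5(+/+) was 1.89-fold in Pax5(DCRD1/-) (log2 0.92 ± 0.18, adjusted p = 0.00895) and 1.96-fold in Pax5(DCRD1/DCRD1) (log2 0.97 ± 0.20, adjusted p = 0.0211). It was 2.69-fold in Pax5(DCRD1,2/-) (log2 1.43 ± 0.18, adjusted p = 2.73e-04), 2.96-fold in Pax5(DCRD1,2/DCRD1,2) (log2 1.56 ± 0.22, adjusted p = 9.78e-04) and 2.78-fold in Pax5-deficient progenitors (log2 1.47 ± 0.16, adjusted p = 5.08e-05). None of these folds passed the fold of 3 of the study's thresholds. The 2 calls in single CRD1 mutants depended on single samples: for Pax5(DCRD1/-) the adjusted p became 0.0770 without Pax5(+/+) replicate 3, 0.0815 without mutant replicate 1 and 0.0674 without mutant replicate 2, and for Pax5(DCRD1/DCRD1) it became 0.104 and 0.225 without either mutant sample, the remaining sample being taken to vary like the other groups.

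Mxd3 moved in the opposite direction and further. Against 142 to 211 TPM in Pax5(+/+), it stood at 45.1 and 68.3 TPM in Pax5(DCRD1/-), 56.8 and 94.5 TPM in Pax5(DCRD1/DCRD1), 40.9 and 38.2 TPM in Pax5(DCRD1,2/-) and 26.8 and 27.7 TPM in Pax5(DCRD1,2/DCRD1,2). In Pax5-deficient progenitors 7.79 and 8.65 TPM remained. No sample of these groups reached the lowest Pax5(+/+) sample, and the 3 groups lacking CRD1 and CRD2 or Pax5 altogether lay below both single CRD1 mutants, again in TPM not adjusted for run type. Mxd3 fell 3.05-fold in Pax5(DCRD1/-) (log2 -1.61 ± 0.22, adjusted p = 0.00112), 2.43-fold in Pax5(DCRD1/DCRD1) (log2 -1.28 ± 0.22, adjusted p = 0.00907) and 4.28-fold in Pax5(DCRD1,2/-) (log2 -2.10 ± 0.22, adjusted p = 8.70e-05). It fell 6.21-fold in Pax5(DCRD1,2/DCRD1,2) (log2 -2.63 ± 0.24, adjusted p = 8.22e-05) and 21.5-fold in Pax5-deficient progenitors (log2 -4.42 ± 0.20, adjusted p = 1.06e-07). Without replicate 1 of Pax5(DCRD1/DCRD1) the difference there was -0.91 (adjusted p = 0.115). The overlapping gene Prelid1, which encodes a mitochondrial protein, changed less, with log2 differences of -0.42 ± 0.20 in Pax5-deficient progenitors (adjusted p = 0.135) and -0.81 ± 0.18 in Pax5(DCRD1,2/DCRD1,2) (adjusted p = 0.0113).

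Mycl and Mxi1 completed the calls. Mycl, the family member best known from dendritic cells and lung, stood at 2.09 and 1.42 TPM in Pax5(DCRD1,2/-) and 11.1 and 15.04 TPM in Pax5-deficient progenitors, against 0.287 to 1.15 TPM in Pax5(+/+). It rose by log2 2.09 ± 0.39, adjusted p = 0.00325 and 3.76 ± 0.35, adjusted p = 1.54e-05, and with a pseudocount of 1 TPM in place of 0.1 the rises were 1.04 and 2.90. In Pax5(DCRD1,2/DCRD1,2) it stood at 0.609 and 1.09 TPM and was not called (1.10 ± 0.57, adjusted p = 0.206). Plasmacytoid dendritic cell markers summed to 924.9 and 1508 TPM in the Pax5-deficient progenitors, against 429.1 to 506.5 TPM in Pax5(+/+), and their part in the Mycl level was not tested. Mxi1, an antagonist related to the Mxd proteins, stood at 30.5 and 28.2 TPM in Pax5-deficient progenitors and 25.7 and 23.4 TPM in Pax5(DCRD1,2/DCRD1,2), against 32.7 to 51.8 TPM. The ranges did not overlap, and Mxi1 fell by 0.66 ± 0.16 (adjusted p = 0.00756) and 0.51 ± 0.14 (adjusted p = 0.0300) on the log2 scale. The first of these calls had an adjusted p of 0.0577 without replicate 2 of the progenitors, and the second reached 0.126 without Pax5(+/+) replicate 4 and 0.169 without replicate 2 of the mutant, and lay above 0.05 in 6 of the 11 fits that leave out 1 sample.

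Counted over the network, 2 of 9 members were called in Pax5(DCRD1/-) where 8.51% of all genes were, 3 of 9 in Pax5(DCRD1,2/-) against 20.2%, and 4 of 9 in Pax5-deficient progenitors against 31.7%. In the homozygous mutants, 2 of 9 were called in Pax5(DCRD1/DCRD1) against 5.98% of all genes and 3 of 9 in Pax5(DCRD1,2/DCRD1,2) against 22.2%. By the study's thresholds, Mxd3 was the 1 member that passed in Pax5(DCRD1/-), Pax5(DCRD1,2/-) and Pax5(DCRD1,2/DCRD1,2), where 2.21%, 4.40% and 4.36% of all genes passed, and Mxd3 and Mycl passed in Pax5-deficient progenitors, beside 7.66%. In Pax5(DCRD1/DCRD1) 0 members passed these thresholds, beside 1.13%. Read against the share of all genes, each count by adjusted p alone was between 1 and 2 members above it, the counts of 1 by the study's thresholds were less than 1 member above it, and the comparisons share their Pax5(+/+) samples.

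The remaining members were not called by limma in these comparisons. Max stayed between 144 and 201 TPM in the mutants lacking CRD1 or Pax5, against 159.7 to 197 TPM in Pax5(+/+), so that the ratio of Myc to Max rose from 0.69 to 1.161 in Pax5(+/+) samples to 2.324 to 2.788 in Pax5-deficient progenitors and 2.694 to 3.71 in Pax5(DCRD1,2/DCRD1,2). Mxd4, a repressor of quiescent and differentiating cells, was 143 to 231 TPM in Pax5(DCRD1,2/-) and 373 to 376 TPM in Pax5-deficient progenitors, against 201 to 335 TPM. In Pax5(DCRD1/DCRD1) it stood at 393 and 378 TPM, above every Pax5(+/+) sample, with a log2 difference of 0.47 ± 0.17, adjusted p = 0.164 by limma, and there DESeq2 on recovered reads called it (0.53, adjusted p = 0.0238). Mnt, the most broadly expressed antagonist, was 63.2 to 72.3 TPM in Pax5-deficient progenitors and 33.8 to 71.6 TPM in Pax5(+/+). Myc, Mycn and Mycl together made up 42.4% to 45.3% of the summed TPM of the Max partners in Pax5(DCRD1/-), 56.8% to 66.3% in Pax5(DCRD1,2/-), 58.3% to 67.1% in Pax5(DCRD1,2/DCRD1,2) and 49.4% to 50.5% in Pax5-deficient progenitors. The Mxd3 share dropped to 0.775% to 0.884% in the last group, and Mxd4, the antagonist with the highest share in Pax5(+/+) too, held 37.4% to 38.2%.

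**Figure D2:**
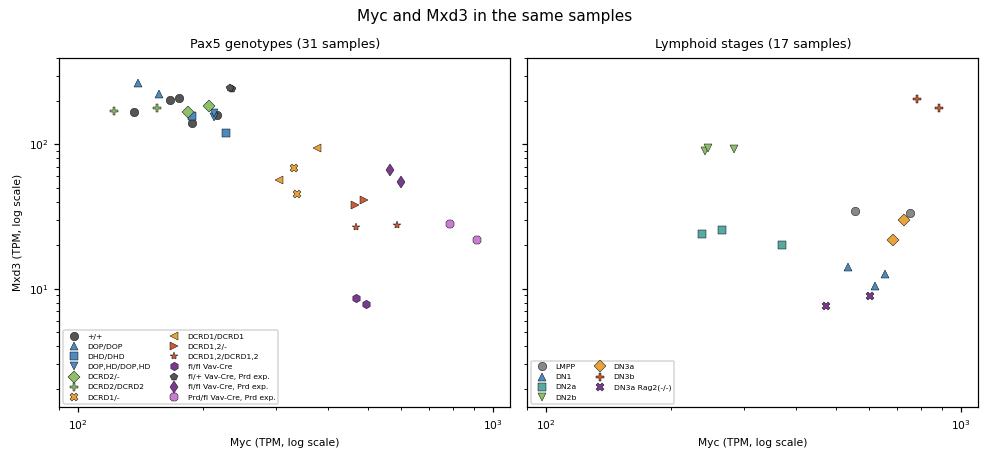
TPM of Myc on the horizontal axis against TPM of Mxd3 on the vertical axis, both on log scales, with a point for each sample, in the pro-B cell and progenitor samples and in the lymphoid samples. Across the pro-B groups, high Myc went with low Mxd3, whereas among the lymphoid samples DN3b lies high on both axes.

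Removal of CRD2 in addition to CRD1 separates cells that remain committed from those that do not, and the 2 kinds of mutant were compared directly. Myc was higher in Pax5(DCRD1,2/-) than in Pax5(DCRD1/-) by log2 0.51 ± 0.20, adjusted p = 0.206, and in Pax5(DCRD1,2/DCRD1,2) than in Pax5(DCRD1/DCRD1) by 0.59 ± 0.27, adjusted p = 0.311, in 2 of 2 samples each. The differences of Mxd3 were -0.49 ± 0.26, adjusted p = 0.368 and -1.35 ± 0.36, adjusted p = 0.0960, again with no overlap between the samples. The hemizygous groups shared a type of sequencing run, but the homozygous groups did not, so separation of the homozygous samples mixes run type with genotype. There Mycn and Mnt were lower in TPM without overlap, while their fitted log2 differences were 0.41 and 0.26. In the other members without overlap, TPM and fit had the same direction. None of the 9 members passed the adjusted threshold in limma, beside 3.65% and 1.66% of all genes. At an unadjusted p under 0.05, 3 and 2 members were found, beside 2340 and 2072 of all 13334 genes tested. On recovered reads, edgeR called 1 in total (Mycl, hemizygous) and DESeq2 called 3 (Myc and Mycl, hemizygous, and Mxd3, homozygous). The test of whether the step differed between homozygous and hemizygous mutants gave -0.86 ± 0.44, adjusted p = 0.732 for Mxd3, and no member passed.

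The Prd experiment gave a further set of Pax5-deficient samples with controls of its own. These controls were Pax5(fl/+) pro-B cells, whereas the other groups were progenitors sorted with the alternative gate. In comparisons with Pax5(fl/+), genotype, gate and cell stage could therefore not be told apart. Myc stood at 235 and 232 TPM in Vav-Cre Pax5(fl/+) pro-B cells, 563 and 598 TPM in Vav-Cre Pax5(fl/fl) progenitors and 786 and 915 TPM in Vav-Cre Pax5(Prd/fl) progenitors, so that the 3 groups did not overlap. Mxd3 gave 243 and 246 TPM, 66.7 and 55.1 TPM and 27.9 and 21.6 TPM in the same order, the reverse ranking without overlap. Relative to Pax5(fl/+), Myc rose 2.49-fold in Pax5(fl/fl) (log2 1.32 ± 0.09, adjusted p = 1.54e-04) and 3.64-fold in Pax5(Prd/fl) (1.86 ± 0.09, adjusted p = 4.75e-05). Mxd3 fell 4.02-fold (-2.01 ± 0.15, adjusted p = 1.70e-04) and 9.92-fold (-3.31 ± 0.15, adjusted p = 3.68e-05). Between Pax5(Prd/fl) and Pax5(fl/fl), both sorted with the same gate, Myc differed by 0.55 ± 0.09, adjusted p = 0.0460 and Mxd3 by -1.30 ± 0.15, adjusted p = 0.0143. Both calls between these 2 progenitor groups lost significance when any 1 of the 4 samples of Pax5(fl/+) or Pax5(fl/fl) was left out, with adjusted p of Myc up to 0.319 and of Mxd3 up to 0.191, both without Pax5(fl/fl) replicate 1.

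Mycl was again higher in the progenitors, with 4.08 and 3.33 TPM in Pax5(fl/fl) and 3.51 and 3.52 TPM in Pax5(Prd/fl) against 0.857 and 1.28 TPM in Pax5(fl/+), and it rose by log2 1.72 ± 0.27, adjusted p = 0.00322 and 1.65 ± 0.27, adjusted p = 0.00374. Mxi1 stood at 36.5 and 36.7 TPM, 23.7 and 26.3 TPM and 19.4 and 25.3 TPM and fell by log2 0.55 (adjusted p = 0.0234) and 0.72 (adjusted p = 0.00824). Mxd1, which appears as cells leave the cycle, fell by 0.42 in Pax5(fl/fl) (adjusted p = 0.0280), and Mxd4 rose by 0.33 in Pax5(Prd/fl) (adjusted p = 0.0245). The calls of Mxd1, Mxd4 and Mxi1 were each lost without either Pax5(fl/+) sample, with adjusted p of 0.167, 0.162 and, for Mxi1 in Pax5(fl/fl), 0.128 without replicate 1. In all, 5 of 9 members were called in each comparison with Pax5(fl/+), beside 39.9% and 40.7% of all genes, and 2 of 9 between Pax5(Prd/fl) and Pax5(fl/fl), beside 1.97%. By the study's thresholds Myc and Mxd3 passed against Pax5(fl/+), where 10.3% and 11.1% of all genes did, and Mxd3 passed between the progenitors, beside 0.711%. Levels of the Pax5-deficient progenitors differed between the 2 experiments, with Mxd3 at 7.79 and 8.65 TPM under the first gate and 66.7 and 55.1 TPM under the alternative one, and the gate, the read length and the experiment could not be told apart.

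**Figure D3:**
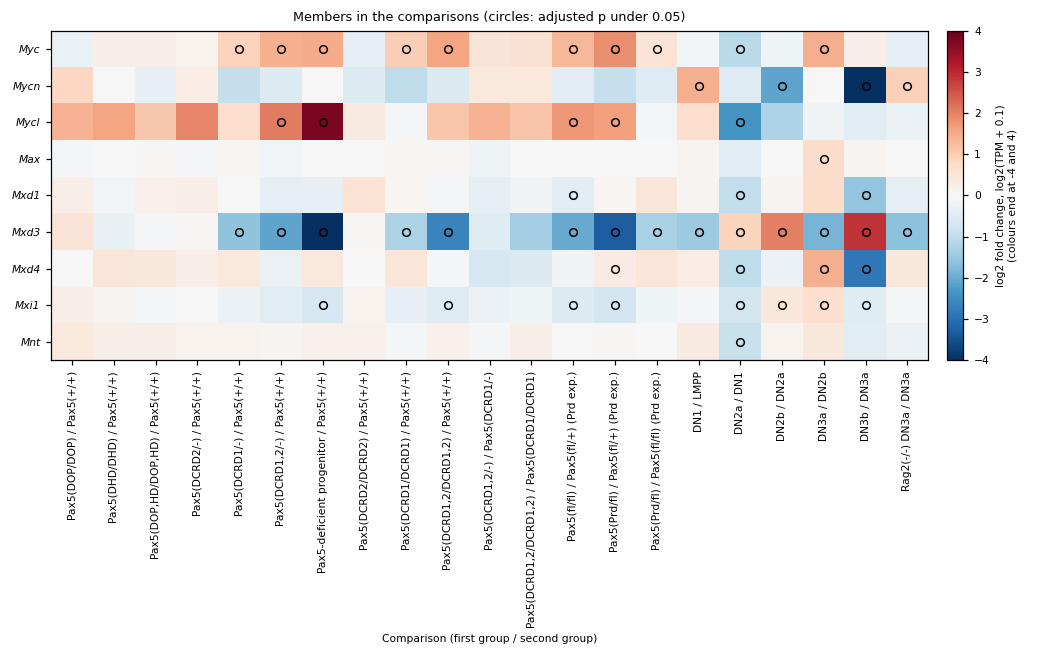
Log2 difference of each member (rows) in each of the 21 comparisons (columns) as a colour, red for higher and blue for lower, with a circle on those called by limma at an adjusted p under 0.05. Mxd3 is blue in every comparison that removes CRD1 or Pax5 and both lower and higher along the T lineage, and the columns of the central-domain and CRD2 deletions carry no circle.

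The other genes of the pathway came from lists of known cofactors and targets. Of 25 growth genes that Myc is known to activate, 6 rose and 0 fell in Pax5-deficient progenitors, where 31.7% of all genes were called in either direction, with a list median of log2 0.40 beside 0.01 over all genes. Polr1b, a subunit of RNA polymerase I, led with 1.06 ± 0.18, adjusted p = 9.86e-04, and Ppan, a ribosome assembly factor, rose least among the 6, with 0.49 ± 0.10, adjusted p = 0.00420. In Pax5(DCRD1,2/DCRD1,2) 6 of 25 rose and 0 fell, led by the nucleolar protein Gnl3 (1.14 ± 0.24, adjusted p = 0.00783), in Pax5(DCRD1,2/-) 3 rose, and in Pax5(DCRD1/-) 1 rose, Ppan, beside 22.2%, 20.2% and 8.51% of all genes called. These shares of the list, of at most 6 in 25, were near or below those of all genes called in either direction. Upwards alone, 2330 of 13637 genes were called in Pax5-deficient progenitors and 1199 of 13429 in Pax5(DCRD1,2/DCRD1,2), smaller shares than the 6 in 25 of the list. In Pax5(DCRD1,2/-) and Pax5(DCRD1/-) 1085 and 525 of 13637 genes rose. No test of the list as a set was run. In the Prd experiment 15 rose in Pax5(fl/fl) and 9 in Pax5(Prd/fl), with medians of 0.41 and 0.22, beside 39.9% and 40.7% of all genes called, and Gnl3 led both (1.03 and 0.97). Of all 12941 genes, 2692 and 3120 rose in these 2 comparisons. None of the 25 was called between Pax5(Prd/fl) and Pax5(fl/fl), where the list median was -0.18.

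Of 15 cycling genes, 9 fell and 4 rose in Pax5-deficient progenitors, beside 31.7% of all genes called in either direction, with a median of -1.80, from Ccna2, the cyclin of S phase and G2 (-2.87 ± 0.23, adjusted p = 4.52e-06), to the replication helicase subunit Mcm6 (0.69 ± 0.16, adjusted p = 0.00707). In Pax5(DCRD1,2/DCRD1,2) 6 fell, led by the mitotic kinase Plk1 (-2.16 ± 0.33, adjusted p = 0.00144), in Pax5(DCRD1,2/-) 3 fell and 2 rose, and in Pax5(DCRD1/-) 1 fell and 1 rose, beside 22.2%, 20.2% and 8.51% of all genes. In the Prd experiment 7 fell and 2 rose in Pax5(fl/fl), beside 39.9% of all genes called. In Pax5(Prd/fl) 8 fell and 1 rose, beside 40.7%. Between Pax5(Prd/fl) and Pax5(fl/fl) 5 fell, led again by Plk1 (-1.68 ± 0.10, adjusted p = 0.00206), beside 1.97%. Mxd3 was lower in each of these comparisons, and the part of cell cycle distribution in its level was not tested.

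Among the partners outside the named network, Mlxip, which pairs with the Max-like protein Mlx, fell in Pax5-deficient progenitors (-0.69 ± 0.12, adjusted p = 0.00106) and, with Mlx (-0.71 ± 0.13, adjusted p = 0.00345), in Pax5(DCRD1,2/DCRD1,2) (-0.67 ± 0.15, adjusted p = 0.0126). Both also fell in Pax5(DCRD1,2/-), Mlxip by 0.64 and Mlx by 0.58 on the log2 scale. In the Prd experiment it fell in Pax5(fl/fl) (-0.84 ± 0.11, adjusted p = 0.00156) but rose in Pax5(Prd/fl) (0.41 ± 0.11, adjusted p = 0.0236), and the difference between these groups was 1.25 ± 0.11, adjusted p = 0.00749. Of the Sin3 corepressor, Sin3b fell in Pax5(DCRD1,2/DCRD1,2) (-0.44) and Sin3a and Sin3b fell in both progenitor groups of the Prd experiment, by no more than 0.40 on the log2 scale. Of the genes for Myc protein turnover, Skp2, a ubiquitin ligase subunit, fell in Pax5-deficient progenitors (-1.07 ± 0.19, adjusted p = 0.00138) while Usp36, a deubiquitinase of Myc, rose there (0.56 ± 0.14, adjusted p = 0.00917) and in Pax5(fl/fl) of the Prd experiment (0.43). Of 7 cofactors of Myc, 4 fell in Pax5(fl/fl) and 2 in Pax5(Prd/fl) of the Prd experiment. In these comparisons 39.9% and 40.7% of all genes were called in either direction. The falls ranged from the chromatin cofactor Hcfc1 (-0.58 and -0.60) to Zbtb17, which Myc binds at repressed genes (-0.32 and -0.27). Hcfc1 was also the 1 cofactor that fell in Pax5(DCRD1,2/DCRD1,2) (-0.62 ± 0.16, adjusted p = 0.0229), beside 22.2% of all genes called.

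In the T lineage Myc was high, low and high again. The LMPP samples gave 554 and 752 TPM and the DN1 samples 655, 619.9 and 535 TPM, with overlapping ranges. DN2a stood at 265, 237 and 370.3 TPM and DN2b at 284, 241 and 245 TPM, below every LMPP and DN1 sample. DN3a returned to 685 and 728 TPM and DN3b reached 784 and 882 TPM. Myc fell from DN1 to DN2a by log2 1.07 ± 0.17 (adjusted p = 3.14e-04) and rose from DN2b to DN3a by 1.46 ± 0.19, adjusted p = 3.57e-05. From DN3a to DN3b it differed by 0.24 ± 0.20, adjusted p = 0.355, where the median of all genes was -0.41, and after scaling each sample to its median the difference was 0.51 (adjusted p = 0.0128).

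Mycn followed another course. It stood at 90.2 and 95.02 TPM in LMPP, peaked at 287, 248 and 227 TPM in DN1, and declined through 167, 140.0 and 242 TPM in DN2a, 52.8, 47.7 and 27.5 TPM in DN2b and 37.4 and 43.5 TPM in DN3a to 1.102 and 1.95 TPM in DN3b. DN1 and DN2a overlapped, as did DN2b and DN3a, and the other neighbours did not. Mycn rose from LMPP to DN1 by log2 1.45 ± 0.28, adjusted p = 0.00218 and fell from DN2a to DN2b by 2.11 ± 0.25 (adjusted p = 4.55e-05). The largest of its falls was from DN3a to DN3b, 25.8-fold (log2 -4.69 ± 0.31, adjusted p = 5.78e-08). Mycl was called once, with 2.65, 2.12 and 3.91 TPM in DN1 and 0.392, 0.622 and 0.378 TPM in DN2a, a fall of 2.39 ± 0.42 on the log2 scale (adjusted p = 8.12e-04).

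**Figure D4:**
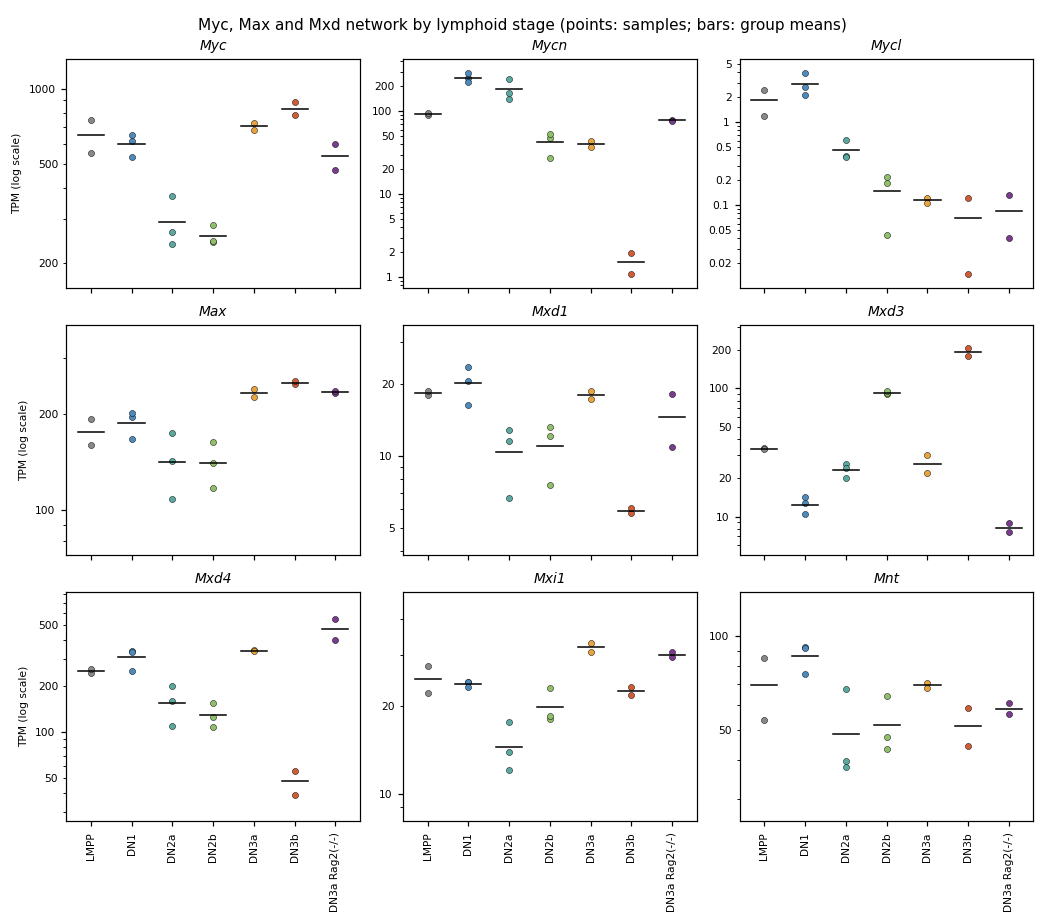
TPM of the 9 members, 1 panel each on a log axis, in LMPP, DN1, DN2a, DN2b, DN3a, DN3b and Rag2(-/-) DN3a samples along the horizontal axis, with a point for each sample and a line for the group mean. Mycn falls to 1.10 to 1.95 TPM in DN3b while Mxd3 rises to 179 to 207 TPM and Mxd4 drops to 38.8 to 55.8 TPM.

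Mxd3 was high at 2 stages of the T lineage. It gave 34.3 and 33.4 TPM in LMPP, 12.7, 10.5 and 14.1 TPM in DN1, 25.5, 23.9 and 20.1 TPM in DN2a and 92.4, 90.7 and 94.9 TPM in DN2b. DN3a dropped to 21.9 and 30.01 TPM and DN3b rose to 207 and 179 TPM, which overlaps the Pax5(+/+) pro-B cell range, although the 2 sets of files were normalised separately. No 2 neighbouring stages overlapped. Each of the 5 steps was called: Mxd3 fell from LMPP to DN1 (log2 -1.45 ± 0.16, adjusted p = 2.05e-05), rose to DN2a (0.90 ± 0.15, adjusted p = 4.68e-04) and to DN2b (2.00 ± 0.15, adjusted p = 6.85e-07), fell to DN3a (-1.85 ± 0.16, adjusted p = 1.58e-06) and rose 7.48-fold to DN3b (2.90 ± 0.18, adjusted p = 3.41e-08). The overlapping gene Prelid1 differed by 1.03 ± 0.15 at the last step (adjusted p = 6.42e-05) and by 0.43 ± 0.12 from DN2a to DN2b (adjusted p = 0.0257).

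Mxd4 moved against Mxd3 from DN1 to DN2a and at the steps into and out of DN3a. It stood at 154, 126 and 107 TPM in DN2b, 345 and 337 TPM in DN3a and 55.8 and 38.8 TPM in DN3b, with no overlap. It rose by log2 1.42 ± 0.25, adjusted p = 4.41e-04 and then fell 7.31-fold (log2 -2.87 ± 0.27, adjusted p = 1.26e-06). As a share of the summed TPM of the Max partners, Mxd4 went from 26.8% to 28.4% in DN3a to 3.30% to 4.91% in DN3b, and Mxd3 from 1.80% to 2.39% to 15.2% to 18.2%. The Myc family held 59.6% to 61.5% in DN3a and 69.1% to 75.3% in DN3b, its highest share in the lymphoid samples.

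**Figure D5:**
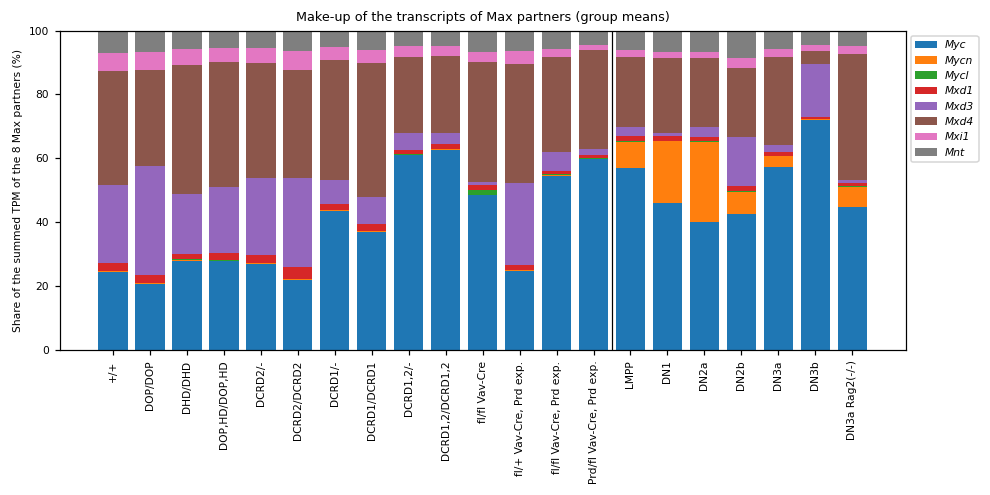
Share of each Max partner in the summed TPM of the 8 partners, in percent and stacked to 100, as the mean of each group, for pro-B cell, progenitor and lymphoid groups. The Mxd3 share narrows from 18.8% to 29.6% in Pax5(+/+) samples to 0.775% to 0.884% in Pax5-deficient progenitors, and the Mxd4 share falls between DN3a and DN3b.

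The other antagonists and Max changed less. Mxd1 stood at 23.6, 20.7 and 16.5 TPM in DN1, 11.6, 6.68 and 12.9 TPM in DN2a, 18.8 and 17.4 TPM in DN3a and 5.801 and 6.05 TPM in DN3b, and fell from DN1 to DN2a (-0.995 ± 0.27, adjusted p = 0.0126) and from DN3a to DN3b (-1.59 ± 0.33, adjusted p = 0.00103). Mxi1 and Mnt also fell from DN1 to DN2a, by 0.73 (adjusted p = 0.00194) and 0.88 (adjusted p = 0.0102), and so did Mxd4, by 1.02 (adjusted p = 0.00340). Max was called at 1 step, from 164, 141 and 117 TPM in DN2b to 226 and 240.4 TPM in DN3a (log2 0.74 ± 0.18, adjusted p = 0.00434), and stood at 249 and 253 TPM in DN3b. Mxi1 rose from DN2a to DN2b (0.46 ± 0.15, adjusted p = 0.0408) and from DN2b to DN3a (0.69 ± 0.16, adjusted p = 0.00377), the first of which was not called in 12 of the 17 fits that leave out 1 sample, with up to 0.173 without a DN2a sample numbered 1. Mxi1 differed by -0.50 ± 0.18, adjusted p = 0.0290 from DN3a to DN3b, close to the median of all genes (-0.41), and after median scaling by -0.22 (adjusted p = 0.145). The falls of Mxd1 and Mnt into DN2a were not called without 1 of the 2 DN2a samples numbered 1 (0.0624 and 0.0507), nor was Mxd1 without DN1 replicate 1 (0.0580), and Mxi1 from DN3a to DN3b was not called without any 1 of their 4 samples (0.0644 to 0.128). From DN1 to DN2a and from DN2b to DN3a the medians of all genes were -0.18 and 0.27, so that the falls at the first of these steps and the rises at the second each contain a shift of that size.

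Along the 5 steps, 2 of 9 members were called from LMPP to DN1, where 18.6% of all genes were, 7 from DN1 to DN2a against 33.7%, 3 from DN2a to DN2b against 18.2%, 5 from DN2b to DN3a against 45.8% and 5 from DN3a to DN3b against 53.4%. By the study's thresholds Mycn and Mxd3 passed from DN2a to DN2b, beside 2.23% of all genes, Mxd3 from DN2b to DN3a, beside 5.30%, and Mycn, Mxd1, Mxd3 and Mxd4 from DN3a to DN3b, beside 11%. From LMPP to DN1 and from DN1 to DN2a 0 members passed them, beside 3.80% and 2.77%. Read against the share of all genes, the count by adjusted p alone was about 4 members above it from DN1 to DN2a and within 2 members of it at the other steps, while by the study's thresholds it was about 3 members above it from DN3a to DN3b. The DN3a samples belong to both of the last 2 steps.

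Rag2(-/-) DN3a thymocytes, which do not pass the pre-T cell receptor checkpoint, differed from wild-type DN3a in Mxd3 and Mycn. Mxd3 stood at 8.89 and 7.55 TPM against 21.9 and 30.01 TPM in wild-type DN3a and fell by log2 1.63 ± 0.18 (adjusted p = 5.02e-05). Mycn stood at 78.00 and 77.04 TPM against 37.4 and 43.5 TPM and rose by 0.94 ± 0.31, adjusted p = 0.0390, although the adjusted p of Mycn was 0.188 and 0.105 without DN3a replicate 1 or 2, and 0.141 and 0.130 without Rag2(-/-) replicate 1 or 2. Myc was 602 and 473 TPM and was not called (-0.41 ± 0.20, adjusted p = 0.156). Of the 9 members 2 were called, beside 26.4% of all genes, and by the study's thresholds Mxd3 passed, beside 3.52%.

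The growth and cycling genes also changed along these stages. From DN3a to DN3b 18 of 25 growth genes rose and 0 fell, with a median of 0.81 beside -0.41 over all genes, led by Cad, the enzyme that starts pyrimidine synthesis (1.81 ± 0.37, adjusted p = 9.07e-04). All 15 cycling genes rose, with a median of 2.20, led by Plk1 (3.64 ± 0.41, adjusted p = 6.82e-06), at a step where 53.4% of all genes were called in either direction. Of all 13482 genes, 1909 rose at this step. The study gated DN3a cells as CD28-CD71- and DN3b cells as CD28+CD71+. CD71 is the product of Tfrc, 1 of the 25 growth genes, so the gates themselves select on this gene. In Rag2(-/-) DN3a 18 growth genes fell, led by the transferrin receptor gene Tfrc (-2.90 ± 0.33, adjusted p = 7.55e-05), whose product the DN3a gate excludes, and 14 cycling genes fell, led by Mki67 (-3.85 ± 0.56, adjusted p = 4.02e-04), beside 26.4% of all genes. From DN2b to DN3a 13 growth genes rose and 3 fell while 11 cycling genes fell and 0 rose, and from DN2a to DN2b 7 cycling genes rose and 3 growth genes fell, beside 45.8% and 18.2% of all genes. Mxd3 had the direction of the cycling genes at each of these 4 comparisons, and Myc that of the growth genes at the step from DN2b to DN3a, where both were called. From DN1 to DN2a, however, 6 growth genes rose and 3 fell while Myc fell, beside 33.7% of all genes called. Of the cofactors, Ruvbl1 and Ruvbl2, ATPases of chromatin remodelling complexes, rose from DN3a to DN3b (0.66 and 1.09), Ruvbl1 fell in Rag2(-/-) DN3a (-0.51), and Trrap, a scaffold of acetyltransferase complexes, and Zbtb17 fell from DN1 to DN2a (-0.85 and -0.53). Among the turnover genes, Fbxw7, the ubiquitin ligase subunit that marks Myc for degradation, rose into DN3a (1.74 ± 0.28, adjusted p = 2.46e-04) and fell into DN3b (-1.45 ± 0.31, adjusted p = 0.00122), and Mga, a large repressor that also binds Max, did the same (1.78 and -1.40).

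The genes with the pattern most like that of Myc over group means of log2(TPM + 0.1) were Atp23, Ydjc and Cd3eap in the 11 groups of the first pro-B experiment, with Pearson correlations of 0.99 each among 9870 genes. Over the 7 lymphoid groups they were Afg3l2, Gid4 and Exoc3, with 0.98, 0.97 and 0.96 among 9851 genes. Among the members, Mxi1 (-0.96), Mxd3 (-0.90) and Mxd1 (-0.79) ran most strongly against Myc in the pro-B groups. In the lymphoid groups Max (0.87) and Mxi1 (0.70) ran with Myc, and Mxd3 stood at 0.02. These values describe 11 and 7 means that share control samples and sequencing runs. The 11 pro-B means were taken less the read length effect. The search for genes most like Myc was limited to those with a mean above 5 TPM.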

How the data were processed

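Poly(A) RNA-seq of sorted mouse cells was analysed, with 31 pro-B cell and progenitor samples of the Pax5 series and 17 lymphoid samples. ATAC-seq, ChIP-seq and input samples were not used here. For the Pax5 series the authors used STAR 2.4.2a on GRCm38/mm10 with reads cut to 50 nucleotides, counted per RefSeq gene with Rsubread, and deposited TPM, with raw read counts in a few files. Of the files, 8 hold no gene names and were named by the row order of a named file. There the deposited raw counts of Pax5(+/+) replicate 3 are 0 exactly where its named TPM are 0, in 25579 of 25579 rows. For the lymphoid values, handled as a score here, the authors aligned to mm9 with TopHat 1.4.1 and computed TPM. The columns sum to 2 times the TPM total over 2 rows per gene, and a gene was taken as the mean of its rows, with an entry of exactly 1 read as 0.

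The files hold TPM, not counts, so limma 3.58.1 (R 4.3.3; lmFit, eBayes with trend, two-sided) on log2(TPM + 0.1) over genes above 1 TPM in at least 1 sample was the main test, with Benjamini-Hochberg adjustment over all genes of a comparison. Central-domain mutants were fitted with Pax5(+/+) replicates 3 and 4, other mutants with all 5 and a read length term, and the Prd experiment and lymphoid samples in fits of their own. Whole reads were recovered from the TPM of the Pax5 series (100% of 3313 to 5928 values under 100 reads per sample whole within 0.02), and edgeR 4.0.16 and DESeq2 1.42.0 on these reads were alternatives, with other pseudocounts, no filter, median scaling, no trend, a joint model, no read length term, a replicate block and each sample left out. Of the replicate numbers, none pairs samples by its label. Correlations of same-numbered deviations between groups ranged from -0.276 to 0.142, so the block is an alternative. The limma fits of the central-domain, hemizygous and Prd models were checked on simulated counts with known changes. The other models, edgeR and DESeq2 were not part of this check.

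The members and gene lists were chosen with earlier results of these data known. The members are described in every comparison. Genes named from the other lists are those with the largest or smallest log2 difference among the called genes of a list, for the comparisons described, and for Myc the 3 genes with the most similar group means. Columns of fold changes by the authors were not used.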

Additional observations from a re-analysis of the deposited data

How the results depend on the processing

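Of 50 calls of a member in the 21 comparisons, 33 were made under every alternative tried for them and 17 were lost under at least 1, 16 of them without at least 1 sample. Over the single members, 3735 of 4023 alternative values had the direction and side of the threshold of the reported one, 76 lost a call, 57 gained one, 150 moved in size beyond the error without a call, and 5 were reversed. Counts below are calls of a member in a comparison, summed over the comparisons of a set, so that a member can count more than once. The number of such calls in the central-domain mutants was 0, and 1 with DESeq2 on recovered reads. For CRD1,2 against CRD1 deletion it was 0, but 1 with no trend in the prior variance, 1 in the joint model of all 25 pro-B cell and progenitor samples, 2 with no read length term, 1 with edgeR and 3 with DESeq2. For Rag2(-/-) DN3a it was 2, and 1 with no filter on low values or with no trend. With 1 sample left out in turn, the counts ranged from 0 to 0 in the central-domain mutants (0 reported), 8 to 10 in the hemizygous mutants and Pax5-deficient progenitors (9 reported), 2 to 5 in the homozygous mutants (5 reported), 0 to 1 for CRD1,2 against CRD1 deletion, 6 to 15 in the Prd experiment (12 reported), 20 to 25 for the T-lineage steps (22 reported) and 1 to 2 for Rag2(-/-) DN3a. The samples share a number and no known pairing. With the number as a replicate block, 17 calls were made in the hemizygous set, 9 in the homozygous set and 6 for CRD1,2 against CRD1 deletion. The share of all genes called in that fit is not given here. Mnt was reversed in it, with log2 differences of -0.62 in Pax5(DCRD1/-), -0.67 in Pax5(DCRD1,2/-), -0.60 in Pax5(DCRD2/DCRD2), -0.56 in Pax5(DCRD1,2/DCRD1,2) and -0.46 for CRD1,2 against CRD1 homozygotes. By its construction this fit has no read length term and compares mutants of 100 nucleotides with samples of 50 nucleotides, Pax5(+/+) replicates 1 and 2 or, for the last value, Pax5(DCRD1/DCRD1). Mycl in Pax5(DCRD1,2/-) was 0.82 (adjusted p = 0.117) in it. Every sample of the homozygous set correlated best with its own number (8 of 8). So did every sample of the set for CRD1,2 against CRD1 deletion (10 of 10), which shares samples with it. In the hemizygous set 6 of 10 samples did, in the Prd experiment 0 of 6 and in the lymphoid set 5 of 17. Samples of Pax5(+/+) and of mutants number 5 and 2, and the few reads of Mycl and Mycn limit their values in pro-B cells. The depth of the lymphoid samples is unknown, so the reads behind low values could not be counted there.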
